A study of Ovis aries with 91 samples.

Results

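A group of 6 genes was defined by measured values. Their mean level in the posterior left atrium was higher in paced sheep than in control sheep by 0.8 or more on the log2 scale. Their mean level there was 1 or more in log2 CPM, the log of reads scaled to the same library size. In the atrial appendages the rule limited the paced change only as an average over both sides and both paced states. The change in a single state or side could be larger. Of 12141 genes listed for the posterior left atrium, 398 met the limit of 0.8, 332 also met the level minimum, and 327 of these were listed in both appendage tables. Only 12 of the 327 had an absolute paced change under 0.3 in whole tissue and in isolated cardiomyocytes of the appendages, and 6 of these 12 also had an absolute difference between left and right appendage under 0.4 in both. In all, 11824 genes were listed in all 3 tables, so the group holds 6 genes of 11824. These selection values are a description, and no test is given for them. The files give Ensembl sheep gene IDs without names, and 0 IDs matched the reference table of RefSeq genes, so the 6 genes are called by ID and nothing is said of what they encode.

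The posterior left atrium is the wall of the left atrium between the openings of the pulmonary veins, a region known for ectopic beats that can start atrial fibrillation and for the fibrosis that accompanies it. The appendages are muscular pouches at the front of each atrium. Fast pacing of an atrium over a long time brings on atrial fibrillation in large animals and changes ion channels, contractile proteins and the extracellular matrix of the atrial wall. Whole tissue holds muscle cells, fibroblasts, vessel cells and blood cells, whereas a preparation of isolated cardiomyocytes is enriched for the muscle cells.

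RNA was sequenced from sheep whose atria were paced by a fast pacing device in the right atrium, in states named transition and chronic, and from control sheep. The posterior left atrium was sampled in whole tissue only, from 6 control sheep (G21, G32, G36, S3, S4 and C1) and 6 transition sheep (G5, G13, G34, G26, D24 and D27), with no chronic sheep. The appendages gave left and right libraries from 3 control, 3 transition and 3 chronic sheep in whole tissue, and again from 3, 3 and 3 sheep for isolated cardiomyocytes. The condition label is sham for G21, G32, G36, S3 and S4 and control for C1; G21, G32 and G36 are titled control. Sheep with G numbers form a set of their own by their technical replicate labels, and those of them in transition carry the title saline. The sources used here do not say what a sham or saline sheep received, nor age, sex or breed. Whole tissue libraries held 6241967 to 22382458 reads recovered from the deposited values, cardiomyocyte libraries held 5305524 to 12434418, and for the posterior left atrium the depth is unknown.

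Control sheep G36 did not stand apart as a posterior left atrium library: 234 genes lay more than 1 log2 unit below the mean of the other sheep of its state and 197 above it, against 111 to 393 and 115 to 358 in the other sheep. It did stand apart in several of the 6 genes, so each value of theirs is given with and without it. The whole tissue library labelled left appendage of D27 went against its sheep label. Over 322 genes whose level differed between sheep far more than between left and right, 40 of 41 libraries correlated best with another library of their own sheep, at 0.619 or more, whereas this library reached 0.216 with the 4 other D27 libraries and 0.301 with a library of another sheep. These 322 genes were chosen from the same data by sheep label, so agreement of the left and right libraries of a sheep is in part built in. Without the library labelled left D27 the rule finds 9 genes, the 6 among them.

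**Figure D1:**
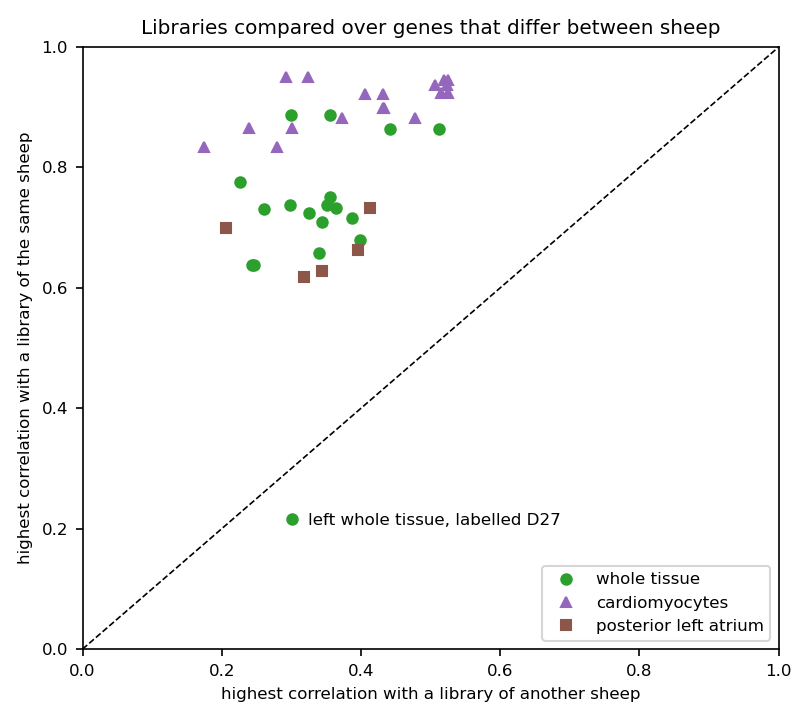
Each point is a library, with its highest correlation with a library of another sheep on the horizontal axis and its highest correlation with another library of the same sheep on the vertical axis, over 322 genes that differ between sheep. The library labelled left whole tissue of D27 lies below the dashed line of equality, at 0.301 and 0.216, and the other 40 libraries lie above it.

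The size of the selected change rested on control sheep G36 in 3 of the 6 genes, and less so in the other 3. In every one of the 6 the lowest of the 6 control values was that of G36, and the values of control and transition sheep overlapped in all 6. Across the whole posterior left atrium table, 4.25% of genes had every transition sheep above every control sheep, and 0 of the 6 genes did; without G36 the share was 4.63%, and again 0 of the 6. The rule used these values, so nothing is read from these counts. Without G36, 0 of the 6 genes met the limit of 0.8, and the rule found 2 other genes. The change over all remaining sheep was above 0 in 6 of 6, but the sets of sheep are unevenly spread over the states there. Within sets, it was above 0 in 6 of 6 among G sheep without G36, with a median of 0.59. Among S, C and D sheep it was above 0 in 3 of 6, with a median of 0.07. The median change of the 6 genes was 1.08 with all sheep and 0.57 without G36, while the median over all genes was -0.01 in both cases.

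The largest change was that of ENSOARG00000004648. Its control values were -2.3 at the lowest, in G36, 7.90 at the median and 9.14 at the highest, and its transition values were 7.52, 8.99 and 9.51 log2 CPM. G36 lay 9.87 log2 units below the next control sheep, and the 5 other control sheep overlapped the transition sheep almost fully. Transition sheep exceeded control sheep by 2.08 on the log2 scale with all sheep, a 4.22-fold difference of the means of log values, and by 0.31, or 1.24-fold, without G36. Among G sheep without G36 the difference was 0.00, and among S, C and D sheep it was -0.16.

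ENSOARG00000009483 had control values of -0.68 in G36, 5.99 at the median and 7.05 at the highest, and transition values of 5.64, 6.70 and 7.49 log2 CPM. Again G36 alone was far below the rest, by 6.46 log2 units, and the other sheep overlapped between states. The change was 1.57 with all sheep, 0.42 without G36 and -0.20 among S, C and D sheep.

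ENSOARG00000009308 had control values of -0.31 in G36, 4.65 at the median and 5.50 at the highest, and transition values of 3.99, 5.11 and 6.01 log2 CPM. The gap from G36 to the next control sheep was 4.26 log2 units, and S4 at 3.95 was the next lowest of all 12 sheep. The change was 1.12 with all sheep, 0.27 without G36 and -0.42 among S, C and D sheep.

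These 3 genes were not the only ones to be near the floor in a single sheep. In the table, 18 genes had 1 sheep below 1 log2 CPM and more than 3 log2 units below the next of the 12 sheep; 4 of the 18 had G36 as that sheep, 3 of those 4 are among the 6 genes, and the other sheep held 0 to 3 such genes each. In this table the mean of the 7 G sheep and the mean of the 5 other sheep were near equal in almost every gene: 95.0% of genes differed by less than 1 standard error, and the median absolute difference was 0.05. For ENSOARG00000004648 these means were 7.50 and 7.72, and the 6 G sheep other than G36 lay at 8.95 to 9.51, above the 5 S, C and D sheep at 7.52 to 7.95. Whether the values of a set had been adjusted to the other before deposit was not tested.

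**Figure D2:**
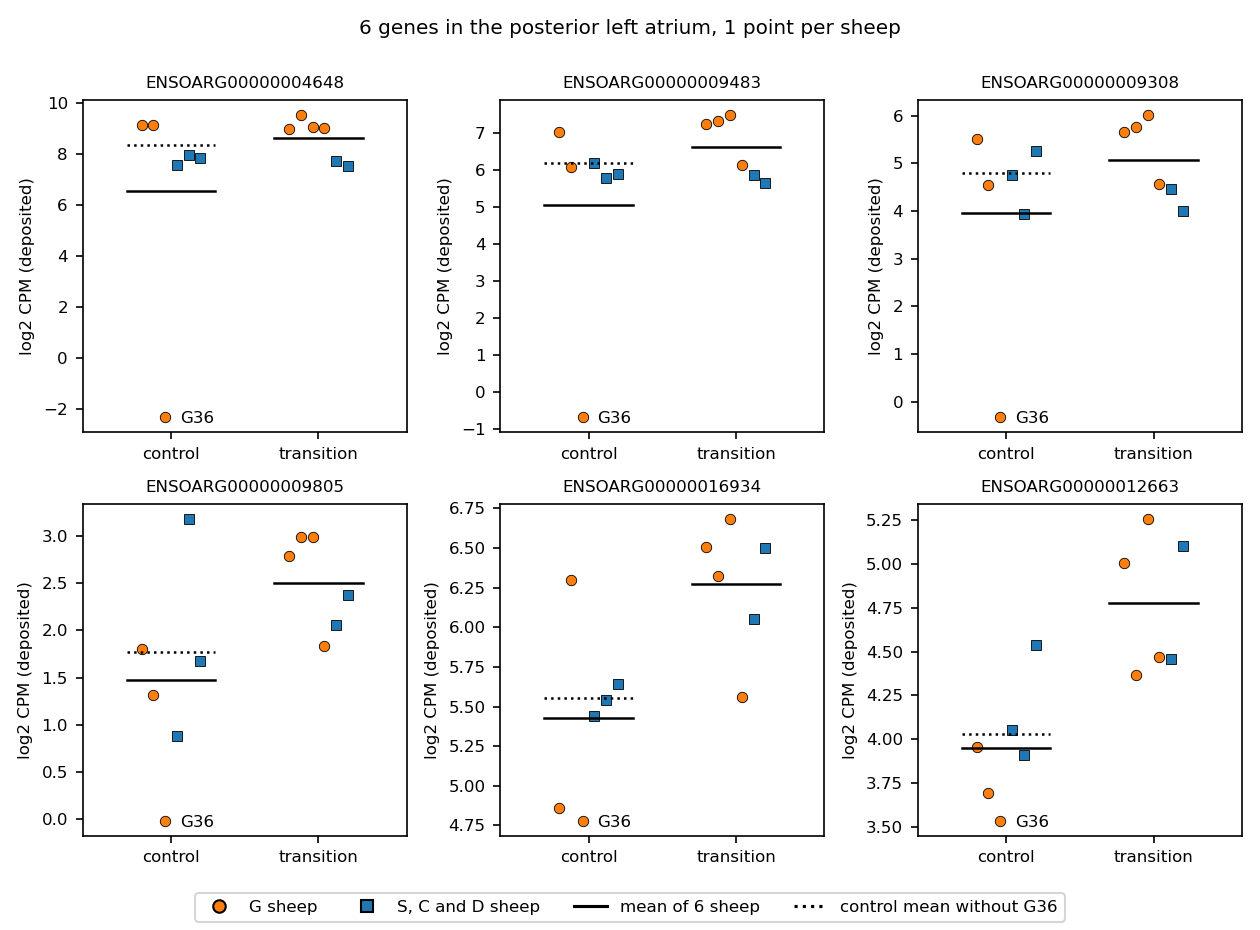
Deposited log2 CPM of the 6 genes in the posterior left atrium, 1 point per sheep, with control and transition sheep on the horizontal axis, circles for G sheep and squares for S, C and D sheep; solid lines are means of 6 sheep and dotted lines the control mean without G36. G36 is the lowest control sheep in every panel and lies 9.87, 6.46 and 4.26 log2 units below the next control sheep in the 3 upper panels.

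The other 3 genes depended less on G36. ENSOARG00000009805 had control values of -0.01 in G36, 1.5 at the median and 3.17 in S4, the highest of all 12 sheep, and transition values of 1.83, 2.58 and 2.99 log2 CPM. Its change was 1.03 with all sheep and 0.73 without G36, and 0.31 among S, C and D sheep. At this low level S4 alone also moved the change, to 1.37 when it was left out.

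ENSOARG00000016934 had control values of 4.78 in G36, 5.49 at the median and 6.30 in G32, and transition values of 5.56 in G26, 6.41 at the median and 6.68 at the highest. Apart from control sheep G32 and transition sheep G26, the states did not overlap in this gene. Its change was 0.84 with all sheep, 0.71 without G36, 0.69 among G sheep without G36 and 0.73 among S, C and D sheep.

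ENSOARG00000012663, the gene just inside the limit, had control values of 3.53 in G36, 3.93 at the median and 4.54 in C1, and transition values of 4.37, 4.74 and 5.26 log2 CPM. Only C1 lay inside the range of the transition sheep, where it was above G13, G26 and D24. The change was 0.83 with all sheep, 0.75 without G36, 0.95 among G sheep without G36 and 0.61 among S, C and D sheep. Just outside the limit stood ENSOARG00000001015, with a change of 0.79 with all sheep and 0.62 without G36.

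**Figure D3:**
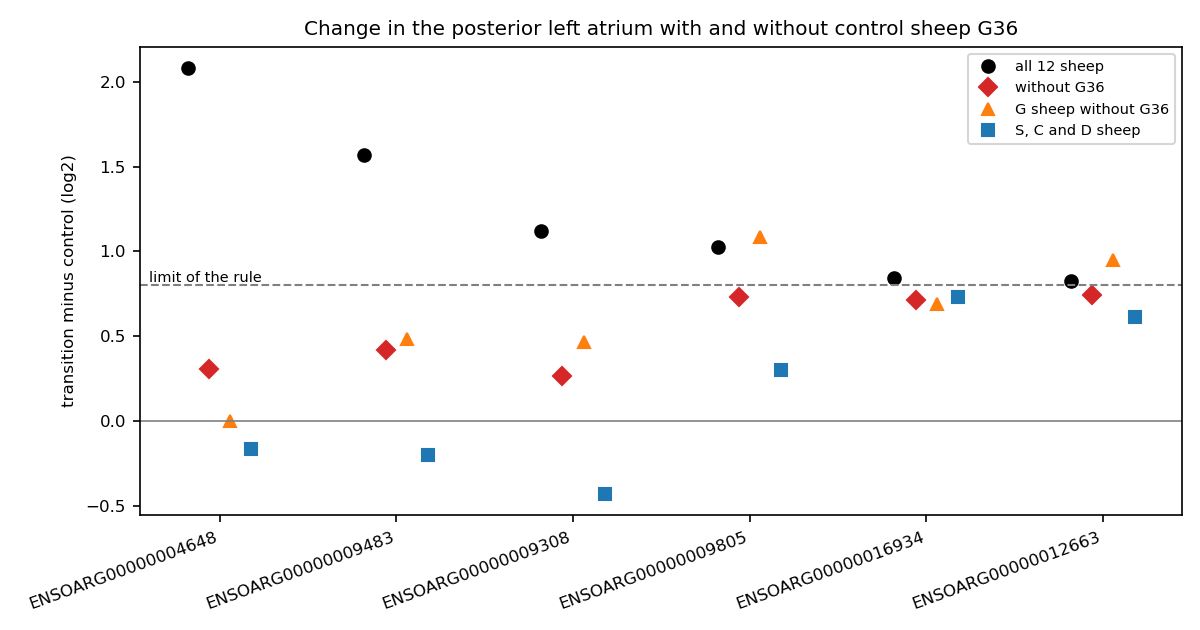
Transition minus control in the posterior left atrium (log2, vertical axis) for the 6 genes, with all 12 sheep, without G36, among G sheep without G36 and among S, C and D sheep; the dashed line is the limit of 0.8. All 6 genes lie above the limit with all sheep and below it without G36, and the first 3 lie below 0 among S, C and D sheep.

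Leaving out a sheep other than G36 kept the change of ENSOARG00000004648 between 1.90 and 2.60, that of ENSOARG00000009483 between 1.39 and 1.96 and that of ENSOARG00000009308 between 0.93 and 1.43. The change of ENSOARG00000016934 then lay between 0.73 and 1.02, and that of ENSOARG00000012663 between 0.73 and 0.95. Whether the change differed between the sets of sheep was a contrast the rule did not bound. It was tested in limma, a linear model across all genes with a shared estimate of spread, with Benjamini-Hochberg adjusted p-values. The test uses the same sheep values that chose the 6 genes, and G36 enters both. Nothing is therefore read from it for the 6. Of the 12035 genes tested, 0.00831% passed an adjusted p of 0.05 in limma, and 0 of the 6 genes did. ENSOARG00000004648 had the largest estimate, 3.98 ± 3.09 (SE) higher in G sheep with an adjusted p of 0.996 in limma, and without G36 the estimate was 0.16 ± 0.24. The p-values here and below measure the spread between these sheep, which the labels name individually.

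Over the 12 posterior left atrium libraries all 15 pairs of the 6 genes correlated positively, at 0.45 to 0.98, and over the 11 sheep without G36 at -0.05 to 0.91. The rule used these values. ENSOARG00000009483 and ENSOARG00000009308 correlated at 0.98 over 12 sheep and at 0.91 without G36. ENSOARG00000004648 and ENSOARG00000009483 correlated at 0.98, and at 0.76 without G36. ENSOARG00000016934 and ENSOARG00000012663 correlated at 0.73, and at 0.64 without G36, whereas ENSOARG00000004648 and ENSOARG00000012663 went from 0.45 to -0.05. These are descriptions over sheep that share the state, the set and the library scaling. Leaving out G36 keeps a difference between the sets. The means of the remaining G sheep and of the 5 other sheep were 9.14 and 7.72 for ENSOARG00000004648. They were 6.89 and 5.88 for ENSOARG00000009483 and 5.34 and 4.48 for ENSOARG00000009308. The part of this difference in the correlations without G36 was not tested.

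Most genes with a higher mean in the posterior left atrium of transition sheep also differed in the appendages. Of the 327 genes, 289 had a paced change of 0.3 or more in appendage whole tissue, 6 had a change of -0.3 or less, and 32 lay inside the limit; in cardiomyocytes the counts were 237, 21 and 69. The median paced change of the 327 genes was 0.90 in whole tissue and 0.66 in cardiomyocytes. The same counts over all genes were not made. Inside all appendage limits of the rule lay 6 of the 327 genes, against 5244 of all 11824 genes. Of the posterior left atrium sheep, 5 also gave appendage libraries, so these values share animals.

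The rule bounded the paced change and the left minus right difference in the appendages, and the levels of the 6 genes there were then compared between sheep. In whole tissue the range of sheep means over 9 sheep had a median of 1.72 log2 units for the 6 genes, against 0.79 for all genes, and in cardiomyocytes it was 1.77 against 0.81. The gap between left and right of a sheep, a different quantity, had a median of 0.35 against 0.25 in whole tissue and 0.22 against 0.24 in cardiomyocytes. The correlation of the left and right libraries of a sheep within a state, estimated in the limma fit, was 0.856 or more in cardiomyocytes for 5 of the 6 genes and 0.47 for ENSOARG00000009805, against a median of 0.47 over all genes. In whole tissue it was 0.95 for ENSOARG00000009805 and 0.47 to 0.68 for the other 5, against a median of 0.29 over all genes; without the library labelled left D27 it was 0.96 and 0.50 to 0.92, against 0.39. The 6 genes were chosen by differences between sheep, and 5 of those sheep also gave appendage libraries. Nothing is therefore read from these ranges and correlations against those of all genes.

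ENSOARG00000016934 was low in a few sheep. In left whole tissue it was 6.31, 6.31 and 6.56 in the control sheep S3, S4 and C1, 6.75, 5.48 and 5.43 in the transition sheep D24, D27 and D30, and 7.21, 6.67 and 6.99 in the chronic sheep D15, D16 and D19. The right libraries gave 6.35, 5.99 and 6.35 in control, 6.56, 6.68 and 5.44 in transition and 6.94, 6.62 and 7.11 in chronic sheep. D30 was low on both sides, and D27 only in the left library that went against its label. In cardiomyocytes the 2 libraries of D23 lay at 5.24 and 5.25 and those of D20 at 5.63 and 5.49, and the other 14 libraries lay at 6.33 to 7.51. D23 is a transition sheep and D20 a chronic sheep, so the low values were in both paced states, and every control library lay above them.

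ENSOARG00000009308 was highest in chronic sheep D19 in all 4 of its libraries, at 5.59 and 5.08 in left and right whole tissue and 5.77 and 5.70 in cardiomyocytes. The other whole tissue libraries lay at 3.12 to 4.46. In cardiomyocytes chronic sheep D20 was lowest, at 3.23 and 3.60. The chronic group thus held both the highest and the lowest cardiomyocyte values.

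ENSOARG00000009483 was lowest in whole tissue in D19, at 5.62 and 4.91, and lowest in cardiomyocytes in D20, at 4.87 and 4.88. All other libraries of the appendages lay at 5.55 to 6.63, except the right cardiomyocytes of D19 at 5.48. ENSOARG00000004648, which was near the floor in G36, was well above it in every appendage library, at 8.31 to 9.58 in whole tissue, while cardiomyocyte values ran from 7.29 to 8.94. Its lowest cardiomyocyte values were those of transition sheep D23, at 7.29 and 7.47, against 8.26 or more in the other sheep. Reads behind this gene were 2098 to 7858 per whole tissue library and 1474 to 5836 per cardiomyocyte library.

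ENSOARG00000009805 rested on few reads, 26 to 250 per whole tissue library and 9 to 135 per cardiomyocyte library. In whole tissue it was highest in D15, at 4.12 and 4.46, and low in S3, at 1.68 and 1.93, and D19, at 1.92 and 1.79. The gap between left and right of a sheep had a median of 0.29 and reached 0.74 in S4. The range between sheep was 2.48. ENSOARG00000012663 differed more between sides: the right whole tissue library of D27 stood at 6.27 and that of D15 at 3.11, while the 9 left libraries lay at 4.05 to 5.06. In cardiomyocytes its right level exceeded its left level in all 3 control sheep, at 4.54 and 4.01 in S3, 4.45 and 3.69 in S4 and 4.62 and 3.95 in C1.

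**Figure D4:**
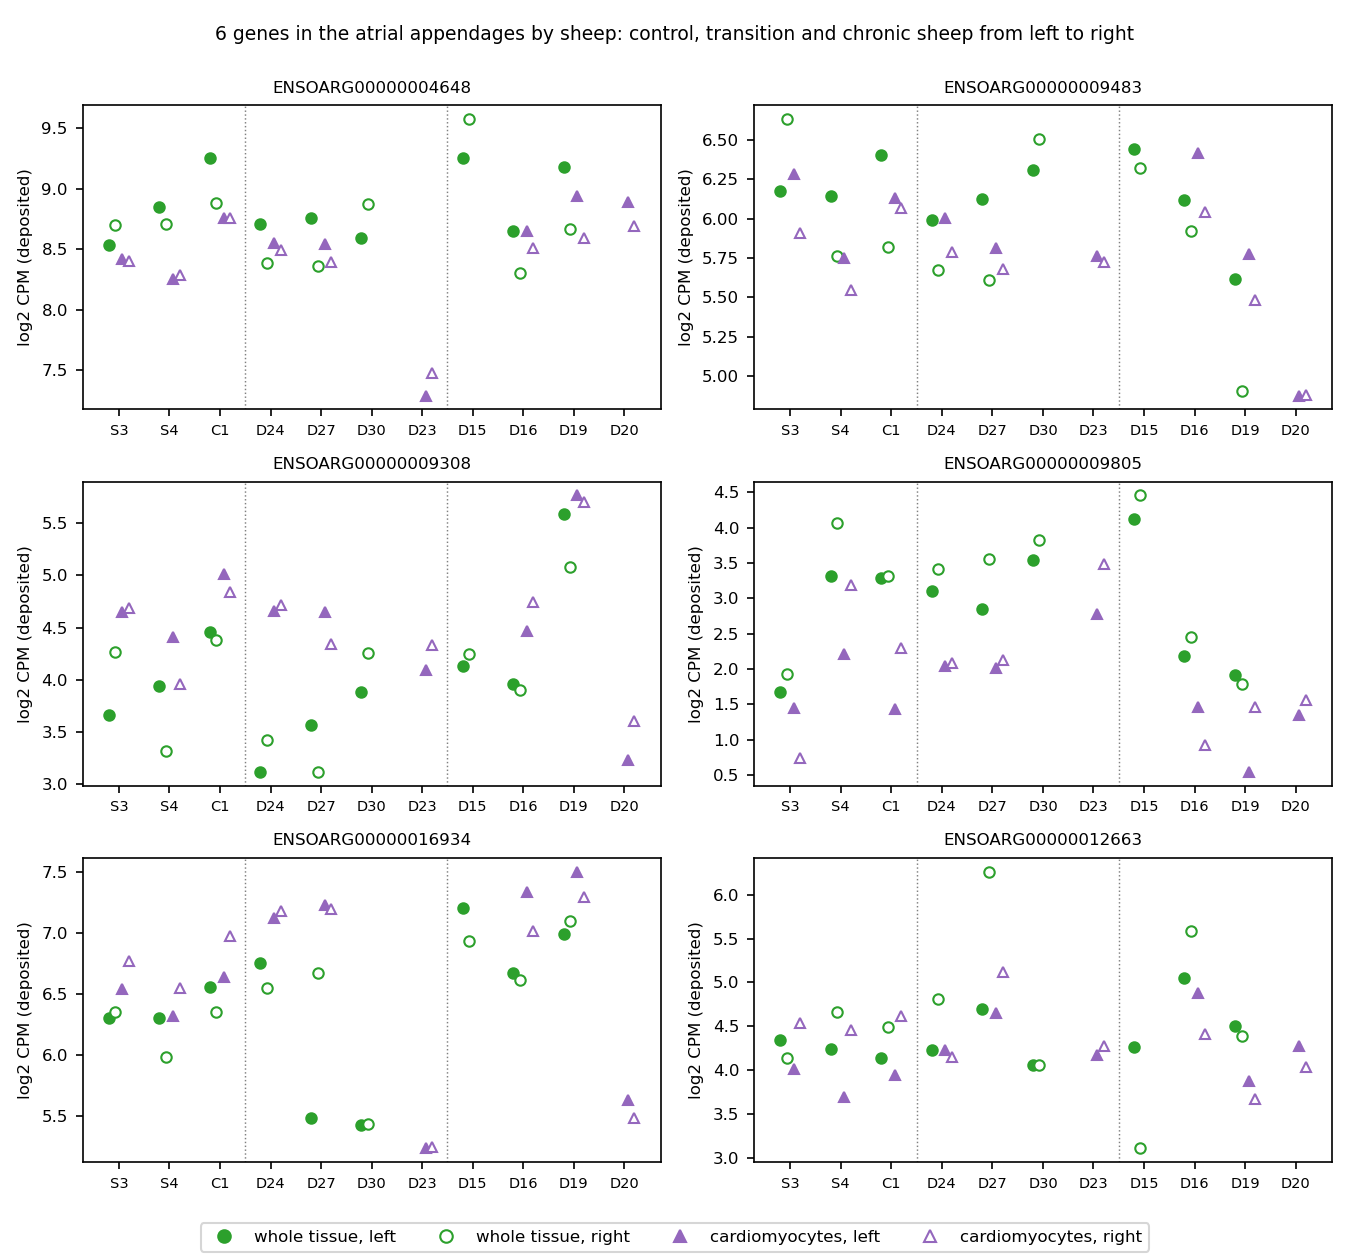
Deposited log2 CPM (vertical axis) of the 6 genes in the appendages by sheep (horizontal axis), with control sheep left of the first dotted line, transition sheep between the lines and chronic sheep to the right; circles are whole tissue, triangles cardiomyocytes, filled symbols left and open symbols right. D19 is highest for ENSOARG00000009308 in all 4 of its libraries, and D23, D20 and D30 are low for ENSOARG00000016934 on both sides.

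The rule left the step from transition to chronic sheep free within each appendage, and it was tested in limma with the sheep as a random effect. In left whole tissue 0% of 12333 genes passed, and so 0 of the 6; at an unadjusted p under 0.05 limma gave 1352 genes, 11.0% of those tested, and 2 of the 6, and limma with voom weights on recovered reads called 0 genes. ENSOARG00000016934 had the largest increase, 1.07 ± 0.31 (SE) from a transition mean of 5.89 to a chronic mean of 6.96, with an adjusted p of 0.209 in limma; without the library labelled D27 it was 0.78 ± 0.32. ENSOARG00000009308 was 1.04 ± 0.40 higher with an adjusted p of 0.361 in limma, and 0.52 ± 0.36 without D19. The largest decrease was that of ENSOARG00000009805, -0.42 ± 0.61 with an adjusted p of 0.836 in limma.

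In right whole tissue 0% of genes passed and 0 of the 6; 747 genes and 0 of the 6 had an unadjusted p under 0.05 in limma, and voom weights called 0 genes. ENSOARG00000009308 was 0.81 ± 0.40 (SE) higher in chronic sheep with an adjusted p of 0.838 in limma, and 0.47 ± 0.36 without D19. ENSOARG00000009805 was -0.70 ± 0.61 with an adjusted p of 0.954 in limma.

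In left cardiomyocytes 0.00814% of 12279 genes passed and 0 of the 6, with 2 of the 6 and 7.04% of all genes at an unadjusted p under 0.05 in limma. ENSOARG00000004648 was 0.70 ± 0.25 (SE) higher in chronic than in transition sheep with an adjusted p of 0.590 in limma, and 0.28 ± 0.14 without transition sheep D23. ENSOARG00000009805 was -1.16 ± 0.52 with an adjusted p of 0.689 in limma. In right cardiomyocytes, where again 0.00814% of genes and 0 of the 6 passed, ENSOARG00000004648 was 0.48 ± 0.25 and ENSOARG00000009805 -1.25 ± 0.52, with adjusted p of 0.575 and 0.529 in limma. Without D23 these were 0.15 ± 0.14 and -0.79 ± 0.55. The directions of these 2 genes were the same on both sides, and the left and right libraries come from the same sheep.

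The paced change itself was limited by the rule over both sides together, but the difference of that change between left and right was not. In whole tissue 0.0486% of genes passed and 0 of the 6; the estimates of the 6 ran from -0.29 ± 0.32 (SE) for ENSOARG00000016934 to 0.11 ± 0.32 for ENSOARG00000009483, with adjusted p of 0.889 and 0.963 in limma. In cardiomyocytes 0.0244% of genes passed and 0 of the 6. ENSOARG00000012663 had the largest value, a paced change 0.72 ± 0.21 higher on the left, with an unadjusted p of 0.00362 and an adjusted p of 0.217 in limma. Its left level was 3.88 ± 0.17 (SD, n = 3) in control, 4.35 ± 0.27 in transition and 4.34 ± 0.51 in chronic sheep, and its right level 4.54 ± 0.08, 4.52 ± 0.53 and 4.04 ± 0.37. ENSOARG00000009308 had the largest value in the other direction, -0.29 ± 0.39 with an adjusted p of 0.809 in limma.

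Against control, the 6 genes had no shared direction in the appendages, where the rule bounded only their average over both sides and both paced states. From control to transition the median was -0.15 in left whole tissue and -0.08 in right whole tissue, with 2 of 6 above 0 on each side, and from control to chronic it was 0.26 and 0.01, with 4 and 3 of 6 above 0. Single values ran from -0.50 for ENSOARG00000009308 and ENSOARG00000016934 in left transition tissue to 0.66 for ENSOARG00000016934 in right chronic tissue. The low value of ENSOARG00000016934 rests in part on the library labelled left D27, at 5.48, which went against its sheep label. In cardiomyocytes the medians lay between -0.27 and 0.06.

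Which preparation held more of each gene was not used by the rule. Whole tissue and cardiomyocyte libraries of the same 7 sheep were set side by side, in tables that were normalised separately, and no test was made; in bulk libraries fewer cells of a type and less RNA per cell cannot be told apart. ENSOARG00000009805 was higher in whole tissue in 7 of 7 sheep, by 1.06 ± 0.24 (SD, n = 7), and ENSOARG00000012663 in 6 of 7 sheep, by 0.38 ± 0.29. ENSOARG00000009308 was lower in whole tissue in 7 of 7 sheep, at -0.77 ± 0.37 with a range of -1.41 to -0.40. ENSOARG00000016934 was also lower in 7 of 7 sheep, at -0.50 ± 0.30, and at -0.41 ± 0.10 without the library labelled left D27. ENSOARG00000004648 and ENSOARG00000009483 differed by less than their spread between sheep, at 0.17 ± 0.20 and 0.02 ± 0.25. The median of the 6 was 0.09, against 0.37 over all genes listed in both tables.

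The posterior left atrium and the left appendage, both as whole tissue, were available from sheep S3, S4, C1, D24 and D27. ENSOARG00000004648 was lower in the posterior left atrium in 5 of 5 sheep, with differences of -0.97, -0.90, -1.41, -0.98 and -1.23. ENSOARG00000009805 was also lower in 5 of 5, with differences of -0.80, -0.15, -1.61, -1.04 and -0.47, and ENSOARG00000009483 in 4 of 5, with S3 at 0.03. ENSOARG00000012663 was lower in 2 of 5. ENSOARG00000009308 was higher in 5 of 5, by 1.08, 0.00, 0.80, 1.35 and 0.42, with S4 near 0. ENSOARG00000016934 was lower in S3, S4, C1 and D24, with differences of -0.87, -0.76, -0.92 and -0.70, and higher by 1.01 in D27, where the left appendage library is the one that went against its label. The median of the 6 genes was -0.37, and -0.53 without D27; over all genes the median in single sheep was -0.13 to -0.16. These tables too were normalised separately, and all 5 sheep were S, C and D sheep. In the posterior left atrium ENSOARG00000004648 lay at 7.52 to 7.95 in these 5, below the G sheep other than G36 at 8.95 to 9.51. With G36 the means of the sets were near equal there, at 7.50 in G sheep and 7.72 in these 5. Whether that near equality bears on the difference of this gene between regions was not tested. The G sheep gave no appendage libraries, so whether the difference of ENSOARG00000004648 between regions holds in them was not tested.

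**Figure D5:**
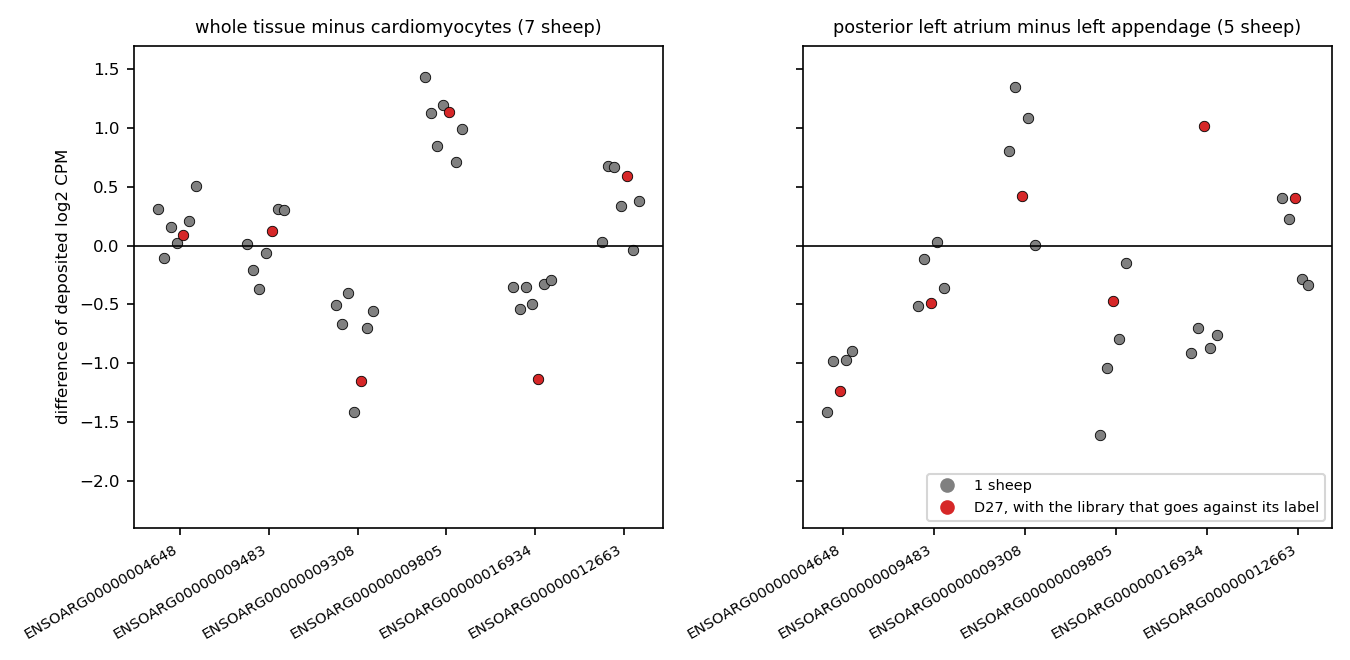
Differences of deposited log2 CPM (vertical axis) for the 6 genes, 1 point per sheep, for whole tissue minus cardiomyocytes (left panel, 7 sheep) and posterior left atrium minus left appendage (right panel, 5 sheep), with D27 in red. ENSOARG00000009805 lies above 0 and ENSOARG00000009308 and ENSOARG00000016934 below 0 in all 7 sheep of the left panel, and D27 stands apart for ENSOARG00000016934 in both.

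The files carry no gene names that would allow lists of cell type markers to be used, so the share of muscle, fibroblast or blood cells in these libraries was not tested. Reads of overlapping genes or of near-identical copies could be counted for any of the 6 genes.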

How the data were processed

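RNA sequencing libraries were made with the Illumina NEBNext Ultra kit, per the labels' protocols. In the submitters' processing notes the tools bcl2fastq, cutadapt, RSEM and limma appear with no version. Aligner settings, build and annotation: not given in the sources used here. All values deposited by the authors are log2 CPM, 1 column per sheep and region, with technical replicates merged where a sheep had more than 1. In the posterior left atrium the S, C and D sheep had 1 sample each, and the G sheep had technical replicates under labels of their own. The set of sheep cannot be told apart from these labels there. In all, 0 columns were left without a sample. Of the appendage values 100% gave whole reads within 0.05 reads. In the posterior left atrium table the means of the sets of sheep were near equal in 95.0% of genes (within 1 standard error); the sources used here record no step for this.

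The 6 genes, the gene lists and the tests were chosen with earlier results of these data known. Contrasts the rule used were described only. The other contrasts were fitted with limma 3.58.1 (R 4.3.3), allowing a trend of variance with level, on genes with a mean log2 CPM of 0 or more, and adjustment by Benjamini-Hochberg covered all those genes, threshold 0.05. The appendage model held 6 group means and the sheep as a random effect, which pairs left and right libraries of the same animal (consensus correlation 0.294 in whole tissue and 0.470 in cardiomyocytes). The posterior left atrium model held state by set of sheep. The rule for naming gave the gene with the largest increase and decrease per contrast where none passed; with 6 genes all are described. The steps were tested on simulated data. For limma these data had a normally distributed spread and held no single sheep far from the others. That simulation therefore does not bear on values such as those of G36. Python 3.11.15 was used for the rest. Alternatives changed 1 choice at a time. No count model was run, since the deposited values are log2; limma with voom weights on the recovered reads was the alternative.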

Additional observations from a re-analysis of the deposited data

Results flagged for a closer look

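Of 24 groups of 5 to 7 sheep tested for a single sheep far from the others, 5 were set apart. Chance sets apart about 1 in 20 unselected groups, a rate that does not apply here: 3 of the 5 are control values that the rule used to choose the genes, and the other 2 share a library. In each case the gap from the extreme sheep to its nearest neighbour is given as a share of the whole range of the group. Control sheep G36 was set apart in the posterior left atrium for ENSOARG00000004648 (0.863), ENSOARG00000009483 (0.836) and ENSOARG00000009308 (0.732). D27 was set apart for ENSOARG00000016934 in the difference between whole tissue and cardiomyocytes (0.713) and in that between posterior left atrium and left appendage (0.890); both differences use the library labelled left whole tissue of D27, which went against its sheep label. The part of sample identity, of the set of sheep, or of the animal itself in these values was not tested.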

How the results depend on the processing

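The rule found 27 genes with a limit of 0.6 in the posterior left atrium, 3 with tighter and 33 with looser appendage limits, and 10 after quantile normalisation. Leaving out 1 sheep gave 2 to 13 genes: 2 without G36, 10 without S3, 13 without S4, 11 without G13 and 10 without D24. Only without G36 were none of the 6 genes kept. Among the 6 genes, the count whose states did not overlap was 0 to 1, with 1 without S4 or C1. The share over all genes was 4.25% with all sheep and is not given for these 2 cases, so nothing is read from this count. The median whole tissue minus cardiomyocyte difference was -0.13 in chronic sheep alone. The cause of these shifts was not tested.

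In no fit did any of the 6 genes pass, over 720 values with a lowest adjusted p of 0.0756 in limma. The numbers of all genes past the threshold moved more. For chronic minus transition in left whole tissue they were 8 with each appendage fitted alone, 10 with a pseudocount of 10 and 35 with sample quality weights, and for right whole tissue 126 with those weights. For the left minus right difference in whole tissue they were 1 with the pseudocount, 11 with the weights and 0 with voom. In left cardiomyocytes they were 2 with each appendage alone, without the filter, with the weights and with voom, and 0 with the pseudocount. In right cardiomyocytes they were 2 with each appendage alone, without the filter and with voom, 4 with the pseudocount and 11 with the weights. For the left minus right difference in cardiomyocytes they were 13 with the pseudocount, 37 with the weights and 6 with voom, and for the difference between sets of sheep 0 with the pseudocount. Leaving out 1 sheep gave 0 to 11 and 0 to 2 in left and right whole tissue, 0 to 10 for their difference, 1 to 15 and 1 to 86 in left and right cardiomyocytes (the highest of both without D23), 0 to 36 for their difference and 1 to 4 for the sets of sheep. Estimates near 0 changed sign in the left minus right difference of whole tissue: over 16 alternatives ENSOARG00000009308 did so in 6, ENSOARG00000004648 in 5, ENSOARG00000012663 in 4, ENSOARG00000009805 in 2 and ENSOARG00000009483 in 1, at -0.20 without S3 in a range of -0.20 to 0.32 when 1 sheep was left out.

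With no replicate block, that is without the pairing of a sheep's libraries, the left minus right difference gave 0 genes in whole tissue and 1 in cardiomyocytes, and the block changed no call among the 6 genes. Depth limits ENSOARG00000009805 most, at 9 to 135 reads per cardiomyocyte library.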
